A study of Mus musculus with 4 samples.

Results

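The 7 genes described here encode the machinery that makes cyclic GMP (cGMP) in photoreceptors and the channel and exchanger that cGMP and calcium control. They are the retinal guanylate cyclases Gucy2e and Gucy2f, the cyclase activators Guca1a and Guca1b, the rod cGMP-gated channel subunits Cnga1 and Cngb1 and the rod exchanger Slc24a1. They were chosen by name, for their function, from the 52636 genes of the deposited table, with earlier results of these data known. All 7 were measured. In the retina of mice with the mutation Q344X, 5 of the 7 passed as lower than in wild-type (WT) retina (limma, adjusted p under 0.05). Of all tested genes, 9.10% passed as lower and 5.46% as higher. The activators fell most: Guca1b kept 15.8% and Guca1a 17.8% of the WT mean. Cnga1 was at 97.3% of the WT mean.

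Retinal RNA was compared between WT mice and mice carrying Q344X, which the study's title ties to dominantly inherited retinitis pigmentosa, a disease in which photoreceptors degenerate. All mice were 3 weeks old, and each genotype has 2 libraries. The labels give no strain, sex, copy number of the mutant allele or construct, and none of the groups is labelled as treated. The submitters began with 3 replicates per genotype and left some out for poor RNA or as outliers, so the spread given here is that of the retained libraries. The libraries are whole retina, in which fewer cells of a type and less RNA per cell cannot be told apart.

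In a rod kept in the dark, membrane guanylate cyclases make cGMP, which holds open a cation channel in the outer segment through which sodium and calcium enter. Light leads to the breakdown of cGMP, the channel closes, and the exchanger continues to carry calcium out. When calcium falls, guanylate cyclase activating proteins switch on the cyclases, which restores cGMP and reopens the channel. Gucy2e and Guca1a are used by cones as well as rods, whereas Cnga1, Cngb1 and Slc24a1 belong to rods. Mutations in several of these genes cause inherited retinal disease.

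Reads in genes came to between 18452679 and 19706573 per library, and the 7 genes were each covered by 1467 to 34697 reads in every library. Together they took 0.637% and 0.731% of the reads in WT and 0.290% and 0.321% in Q344X. Among 16833 genes with a mean of at least 10 normalized counts, 919 were higher and 1531 lower in Q344X (limma, adjusted p under 0.05). After a correction for gene length and GC content, 1969 were higher and 1969 lower. Rod, cone, bipolar, Müller glia and other retinal markers were present in every library. The summed normalized counts of 5 lens genes were 175821 and 206871 in WT, 180593 in Q344X replicate 1 and 4975.6 in Q344X replicate 2, and none of the 5 passed the limma test, at an unadjusted p under 0.05 or in edgeR (median log2 fold change -2.62). Results without Q344X replicate 2 are therefore given as well.

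Of the 7 genes, 5 fell, 0 rose and 2 did not pass, where 9.10% of all tested genes fell and 5.46% rose. Over the 7 the median log2 fold change was -1.55, and over all tested genes it was 0.02. In 6 of the 7, both Q344X libraries lay below both WT libraries, as in 31.7% of all tested genes, and 31.4% of them were the other way round. All log2 fold changes are differences of mean log2(normalized count + 1), Q344X minus WT. Without Q344X replicate 2, the library with few lens transcripts, 6 of the 7 passed in limma as lower and 0 as higher, where 11.7% of all genes tested in that fit were lower and 7.61% higher. The log2 fold changes were -2.89 for Guca1b, -2.74 for Guca1a, -1.75 for Gucy2e, -1.28 for Slc24a1, -0.97 for Gucy2f and -0.75 for Cngb1, and Cnga1 had -0.21. Without each of the other libraries in turn, the 5 that passed with all libraries kept negative log2 fold changes. These ran from -2.86 (Guca1b, without WT replicate 1) to -1.43 (Slc24a1, without WT replicate 2). edgeR's quasi-likelihood test on recovered reads called 4 of the 7 lower and 0 higher, against 9.26% lower and 5.11% higher among all tested genes. At an unadjusted p under 0.05 in limma, 6 of the 7 were lower and 0 higher, against 18.7% and 16.0% of all tested genes.

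**Figure D1:**
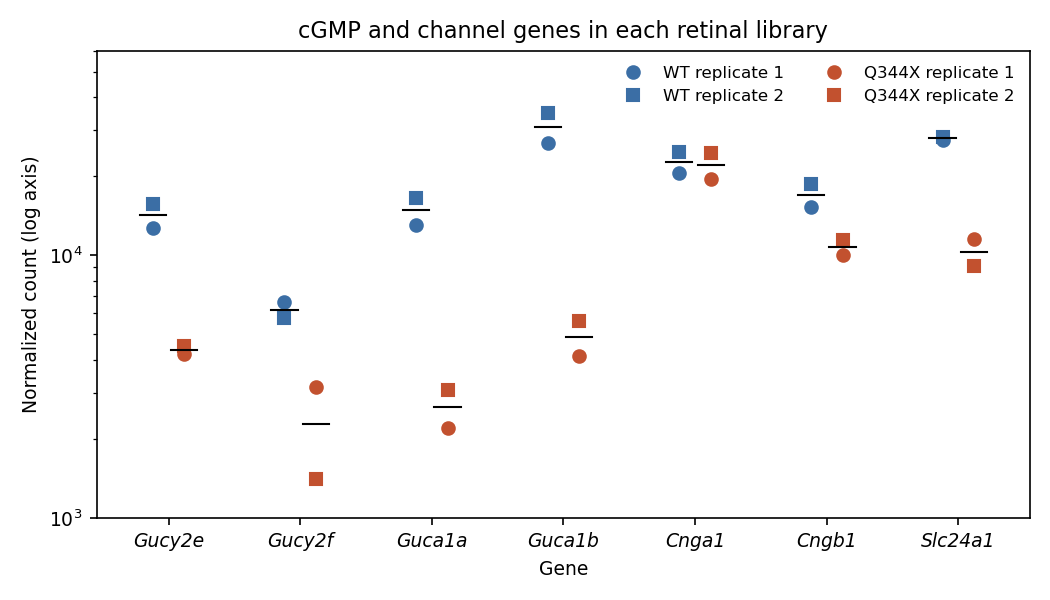
Normalized counts (log axis) of the 7 genes in the 2 WT libraries (blue) and the 2 Q344X libraries (orange), with circles for replicate 1, squares for replicate 2 and bars for the group means. Both Q344X points lie below both WT points in 6 genes, and in Cnga1 the points of the genotypes overlap.

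Promoter sequences are shown for the 4 genes that bracket the range of change among those with an entry: Guca1a and Gucy2e, which fell, and Cnga1 and Cngb1, which did not pass. They come from RefSeq on GRCm38.p6, which held 6 of the 7 genes, all but Guca1b. Each is the 250 bases before the annotated start, 5′ to 3′ on the strand of the gene, which is the minus strand for all 4. Capitals mark matches on either strand to TAATCC, the core letters bound by the photoreceptor homeodomain factor CRX, and to AGGTCA, the letters many nuclear receptors bind, so GGATTA and TGACCT are the same motifs read on the other strand. The windows are chr17:47400607-47400856 for Guca1a, chr11:69237023-69237272 for Gucy2e, chr5:72642753-72643002 for Cnga1, inside the GENCODE span of the gene, and chr8:95306586-95306835 for Cngb1.
Guca1a: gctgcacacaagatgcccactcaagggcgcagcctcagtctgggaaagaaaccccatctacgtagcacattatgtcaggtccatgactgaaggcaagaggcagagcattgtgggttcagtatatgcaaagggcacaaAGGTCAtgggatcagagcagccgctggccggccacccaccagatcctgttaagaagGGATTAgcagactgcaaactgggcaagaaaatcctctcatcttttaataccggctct
Gucy2e: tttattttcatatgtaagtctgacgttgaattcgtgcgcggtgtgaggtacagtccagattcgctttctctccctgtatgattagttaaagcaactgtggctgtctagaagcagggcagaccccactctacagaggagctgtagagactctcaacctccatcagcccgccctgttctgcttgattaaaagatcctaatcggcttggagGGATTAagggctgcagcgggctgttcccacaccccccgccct
Cnga1: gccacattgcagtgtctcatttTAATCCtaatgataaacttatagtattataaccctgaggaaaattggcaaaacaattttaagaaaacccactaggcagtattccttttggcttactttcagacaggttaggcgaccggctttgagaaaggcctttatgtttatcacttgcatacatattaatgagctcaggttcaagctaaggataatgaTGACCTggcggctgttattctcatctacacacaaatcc
Cngb1: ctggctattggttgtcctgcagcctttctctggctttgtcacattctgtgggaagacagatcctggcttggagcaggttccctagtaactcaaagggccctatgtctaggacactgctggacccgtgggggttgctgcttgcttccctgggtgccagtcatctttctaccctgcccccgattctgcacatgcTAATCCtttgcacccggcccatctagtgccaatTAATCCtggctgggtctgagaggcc

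TAATCC was found in 5 of the 6 windows, all but that of Slc24a1, where 6.25% of 32851 RefSeq promoter windows of the same length hold it. Genes that fell (Gucy2e, Gucy2f and Guca1a) and genes that did not pass (Cnga1 and Cngb1) both held it. In Guca1a the match lies 57 to 52 bases before the start, in Gucy2e 42 to 37, and in Cngb1 58 to 53 and 25 to 20. In Cnga1 it lies farther out, at 228 to 223 bases. AGGTCA was in 3 windows (Gucy2f, Guca1a and Cnga1) and in 14.0% of all windows. TGCTGA, part of the site of the rod factor NRL, was in 0 of the 6 windows and in 16.1% of all, and the MEF2 consensus was in 0 of the 6 and in 2.92% of all. The motifs share no letters with each other in the printed windows, and a match is a description of the sequence only.

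The activators Guca1a and Guca1b encode calcium-binding proteins of the EF-hand type (GCAP1 and GCAP2) that stimulate the retinal cyclases at low calcium. Guca1b (ENSMUSG00000023979, chromosome 17, 47385393 to 47392967, plus strand, GRCm38) was at 26838 and 34788 normalized counts in WT replicates 1 and 2 and at 4114 and 5603 in Q344X replicates 1 and 2. Its mean went from 30813 ± 5621 to 4859 ± 1053 (SD, n = 2), a log2 fold change of -2.67 ± 0.24 (SE, limma adjusted p = 0.00532). Every Q344X value was far below every WT value, and the gap between genotypes was wider than that between libraries of a genotype. Guca1a (ENSMUSG00000023982, chromosome 17, 47394558 to 47400584, minus strand) was at 13066 and 16566 in WT and at 2205 and 3061 in Q344X. Its log2 fold change was -2.50 ± 0.24 (limma adjusted p = 0.00584), and the genotypes did not overlap. Among all 16833 tested genes, Guca1b had the 273rd and Guca1a the 336th largest fall in log2 fold change.

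These 2 genes lie tail to tail on chromosome 17, with 1590 bases between their annotated ends. The normalized count of Guca1a divided by that of Guca1b was 0.487 and 0.476 in WT and 0.536 and 0.546 in Q344X. These are ratios of counts, not of levels per length. The ratio was nearly fixed within a genotype and higher in Q344X by 0.17 on the log2 scale, a shift that was 0.059 under quantile normalization and 0.34 with the length and GC correction. The next gene on the side of Guca1b is Mrps10, which encodes a mitochondrial ribosomal protein, 3975 bases away. It was at 500.2 and 506.3 normalized counts in WT and at 760.3 and 826.4 in Q344X (log2 fold change 0.65, limma adjusted p = 0.0588, not past the threshold).

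The cyclases had smaller fitted changes than their activators, and Gucy2e passed with more room than Gucy2f. Gucy2e, which encodes retinal guanylate cyclase 1 and is named GUCY2D in humans (ENSMUSG00000020890, chromosome 11, 69218117 to 69237036, minus strand), was at 12649 and 15678 normalized counts in WT and at 4197 and 4515 in Q344X. Its mean went from 14164 ± 2142 to 4356 ± 225 (SD, n = 2), with a log2 fold change of -1.69 ± 0.19 (SE, limma adjusted p = 0.00862). The Q344X libraries were close to each other and at 30.8% of the WT mean. Gucy2f, which encodes retinal guanylate cyclase 2 (ENSMUSG00000042282, chromosome X, 142081160 to 142196931, minus strand), was at 6615 and 5760 in WT and at 3142 and 1408 in Q344X. The genotypes did not overlap, but the Q344X libraries differed 2.23-fold between themselves, more than for any other of the 7 genes. Its log2 fold change was -1.55 ± 0.38 (limma adjusted p = 0.0476).

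The call for Gucy2f was near the threshold and depended on the processing. It was lost with edgeR on recovered reads (adjusted p = 0.0603), with a minimum mean of 50 (limma adjusted p = 0.0545) and with no filter on low values (0.124), and held without each library. Its log2 fold change was -2.13 without Q344X replicate 1 and -0.97 without Q344X replicate 2. On the log2 scale the difference between Q344X replicates, replicate 2 minus replicate 1, was -1.158 for Gucy2f. Gucy2f has 8122 exon bases, and the median of the same difference over the 2131 tested genes with 7000 to 10000 exon bases was -0.22, with -0.99 at the 5th percentile. Gucy2e, with 9197 exon bases, had 0.11.

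The channel genes had the smallest fitted changes of the 7, and neither passed. Cnga1, the alpha subunit that forms the pore (ENSMUSG00000067220, chromosome 5, 72603696 to 72644275, minus strand), was at 20478 and 24758 normalized counts in WT and at 19456 and 24580 in Q344X. The ranges of the genotypes lay on top of each other. Its log2 fold change was -0.04 ± 0.22 (SE, limma adjusted p = 0.904), with a 95% confidence interval from -0.57 to 0.49, and its sign turned under quantile normalization (0.24), with the length and GC correction (0.10) and without WT replicate 2 (0.09) or Q344X replicate 1 (0.13). The interval includes changes of that size in either direction, and it does not reach the fitted values of the 5 genes that fell. A pseudogene inside Cnga1 on the same strand, Gm5297, held 30.7 to 82.2 normalized counts per library, a small part of the Cnga1 level.

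Cngb1, the beta subunit (ENSMUSG00000031789, chromosome 8, 95239045 to 95306585, minus strand), was at 15215 and 18621 in WT and at 9976 and 11413 in Q344X. Both Q344X libraries were lower, at 63.2% of the WT mean, yet the gene did not pass (log2 fold change -0.66 ± 0.20, SE, limma adjusted p = 0.0762). The 95% confidence interval of a single gene, not adjusted over genes, ran from -1.15 to -0.17, and without Q344X replicate 2 the adjusted p was 0.0415. Cngb1 has 10 annotated transcripts and also gives rise to the soluble glutamic acid-rich proteins of rods, which gene-level counts do not separate from the channel subunit.

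Slc24a1 encodes the rod exchanger NCKX1, which carries calcium and potassium out of the outer segment in exchange for sodium (ENSMUSG00000034452, chromosome 9, 64922861 to 64951607, minus strand). It was at 27440 and 28256 normalized counts in WT, the closest pair of WT libraries among the 7 genes, and at 11481 and 9063 in Q344X. Its mean went from 27848 ± 577 to 10272 ± 1709 (SD, n = 2), with a log2 fold change of -1.45 ± 0.20 (SE, limma adjusted p = 0.0127). The genotypes did not overlap, and the gene kept 36.9% of its WT mean. Testing every gene above 0 ended this call (limma adjusted p = 0.0544).

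**Figure D2:**
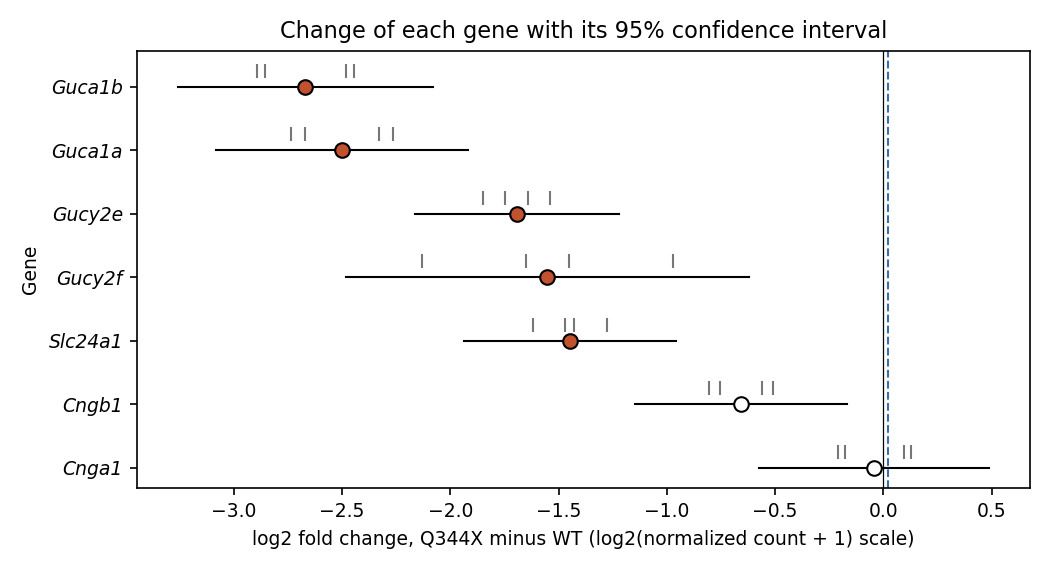
Log2 fold change of each gene (x axis, Q344X minus WT) with its 95% confidence interval; filled points passed adjusted p under 0.05 in limma and open points did not, grey ticks are the values without each library in turn, and the dashed line is the median of all tested genes (0.02). The intervals of Guca1b and Guca1a lie wholly below -1.9, and that of Cnga1 spans 0.

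Ratios between partners within a library, which do not depend on the scaling factor of that library, set the members against each other. Cnga1 over Cngb1 was 1.35 and 1.33 in WT and 1.95 and 2.15 in Q344X, so the alpha subunit was higher relative to the beta subunit by 0.62 on the log2 scale. Slc24a1 over Cnga1 was 1.34 and 1.14 in WT and 0.590 and 0.369 in Q344X, a difference of -1.41, so the exchanger was lower relative to the channel subunit in both Q344X libraries. Gucy2e over Guca1a was 0.968 and 0.946 in WT and 1.90 and 1.48 in Q344X, a difference of 0.81. In these 3 ratios, and in Guca1a over Guca1b, the genotypes did not overlap.

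Gucy2e over Gucy2f was 1.91 and 2.72 in WT and 1.34 and 3.21 in Q344X. Here the Q344X libraries lay on both sides of the WT libraries, so no shift between the cyclases was seen at this spread. Of the 5 ratios, 4 had an exact permutation p of 0.333 (two-sided, adjusted 0.417), the smallest that 2 against 2 libraries can give, and Gucy2e over Gucy2f had an exact permutation p of 1. The ratio differences rest on the spread between libraries alone, and no p under 0.05 can be reached.

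**Figure D3:**
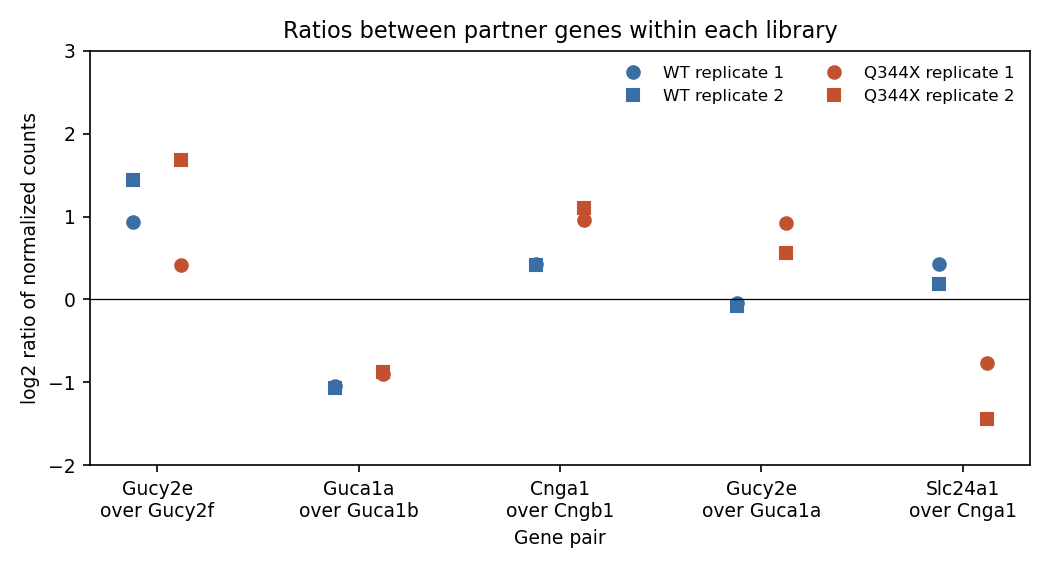
Log2 ratio of normalized counts between partner genes in each library, with WT in blue, Q344X in orange, circles for replicate 1 and squares for replicate 2. The genotypes are apart in 4 of the 5 ratios and overlap for Gucy2e over Gucy2f.

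Levels can be compared between genes only per length, and here as normalized counts per kilobase of annotated exon. In WT the order was Guca1a (16972 ± 2835, SD, n = 2), Guca1b (12623 ± 2303), Slc24a1 (5342 ± 111), Cnga1 (3575 ± 478), Cngb1 (1808 ± 257), Gucy2e (1540 ± 233) and Gucy2f (762 ± 74.4). Cngb1 was above Gucy2e within each WT library (1626 and 1375 in replicate 1, 1990.5 and 1705 in replicate 2). In Q344X the order was Cnga1 (3480 ± 573, SD, n = 2), Guca1a (3016 ± 693), Guca1b (1990.5 ± 431), Slc24a1 (1970.5 ± 328), Cngb1 (1143 ± 109), Gucy2e (474 ± 24.5) and Gucy2f (280.1 ± 151.0). By this length Cnga1 thus moved from the fourth place to the first, and it was above Guca1a within each Q344X library. Guca1b was below Slc24a1 in Q344X replicate 1 (1686 and 2202) and above it in Q344X replicate 2 (2295.5 and 1739). The order of Guca1b and Slc24a1 in Q344X is therefore not resolved. The cyclases had the lowest levels per kilobase in both genotypes.

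The length used matters for 3 of the genes. With the longest annotated transcript in place of all exons, the WT level per kilobase of Cnga1 was 8258 instead of 3575, that of Guca1b 18473 instead of 12623 and that of Cngb1 2734 instead of 1808. Guca1b then stood above Guca1a, and Cnga1 above Slc24a1. The fold changes between genotypes do not depend on this choice, since a length is the same in every library. The places of the genes in the order do depend on it. In Q344X, with the longest transcript, the mean was 8039 for Cnga1 and 3016 for Guca1a.

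The partners of these genes in the rod cascade also fell in part. Of 14 partners, 6 fell, 0 rose and 8 did not pass, with a median log2 fold change of -0.999. Gnat1, the rod transducin alpha subunit, had 191900 ± 17428 normalized counts in WT and 38699 ± 1460 in Q344X (SD, n = 2), a log2 fold change of -2.31 ± 0.20 (SE). Pde6a, a catalytic subunit of the phosphodiesterase that breaks down cGMP, had -1.68 ± 0.23, and Grk1, the kinase that shuts off the light-activated receptor, -1.60 ± 0.18. The other catalytic subunit, Pde6b, had -0.75 ± 0.20 and did not pass (limma adjusted p = 0.0587). The cyclase Gucy2e and the phosphodiesterase subunit Pde6a, which act on cGMP in opposite ways, had fitted log2 fold changes of -1.69 and -1.68. How close such values are depends on the pair taken: Gucy2f had -1.55, Pde6b -0.75 and the subunit Pde6g -0.91.

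Part of the cone counterparts fell as well. Of 9 cone cascade genes 4 fell, 0 rose and 5 did not pass, with a median log2 fold change of -0.92. Pde6h (-2.59 ± 0.42), Arr3 (-2.17 ± 0.30), Gnat2 (-1.13 ± 0.16) and Cngb3 (-1.03 ± 0.23, SE) fell, which encode a phosphodiesterase subunit, cone arrestin, cone transducin and the cone channel beta subunit. The cone channel alpha subunit Cnga3 was at 271.4 and 309.8 normalized counts in WT and at 141.6 and 184.3 in Q344X, a log2 fold change of -0.84 ± 0.23, not past the threshold (limma adjusted p = 0.0614). The rod subunits therefore ran from -0.04 to -0.66 and the cone subunits from -0.84 to -1.03 in log2 fold change, a contrast that was not tested.

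Of 7 genes that supply or escort the cyclases, Rd3 fell and 6 did not pass. Of all tested genes, 9.10% fell and 5.46% rose. The list had a median log2 fold change of 0.04. Rd3, which encodes a protein that binds the retinal cyclases and brings them to the outer segment, was at 4333 and 6814 normalized counts in WT and at 1724 and 2496 in Q344X (log2 fold change -1.39 ± 0.29, SE, limma adjusted p = 0.0344). Both Q344X libraries were below both WT libraries. Impdh1, the retinal enzyme of guanine nucleotide synthesis, had -0.46, Guk1, guanylate kinase, had 0.62 and Gmps, GMP synthase, 0.04.

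The wider families of these enzymes and sensors were compared too, where 9.10% of all tested genes fell and 5.46% rose. Of 8 other guanylate cyclases, 6 were tested and 0 passed in limma or edgeR, with 1 at an unadjusted p under 0.05 in limma, with log2 fold changes from -0.16 to 1.23 and a median of 0.07. Gucy1a1 and Gucy1b1, the subunits of the soluble cyclase that responds to nitric oxide, had -0.14 and 0.05, and Npr2 and Gucy1a2 had -0.16 and 0.09. Of 11 other neuronal calcium sensors, relatives of the activators, Rcvrn (-1.15 ± 0.24, SE), recoverin of photoreceptors, and Kcnip3 (-0.92 ± 0.18) fell and 9 did not pass, with a median of 0.14. Ncald and Hpca had 0.14 and 0.55.

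The last lists hold other channels, transporters and cGMP effectors, to be read beside the 9.10% of all tested genes that fell and 5.46% that rose. Of 8 other cyclic nucleotide gated and related channels 6 were tested, Cngb3 fell and 5 did not pass, with a median log2 fold change of -0.43, and Hcn4 and Hcn3 had 0.56 and -0.36. Of 11 other sodium-calcium exchangers and calcium pumps, Slc8a2 rose (1.20 ± 0.23, SE) and 10 did not pass, with a median of -0.15. Slc24a4, Slc24a2 and Slc24a5, of the same family as Slc24a1, had -1.53, -0.92 and 0.34 and did not pass. Atp2b1, Slc24a3 and Atp2b2 in that list had -0.08, 0.16 and -0.32. Of 8 other cGMP effectors and phosphodiesterases, Pde10a fell (-0.91 ± 0.21, SE) and 7 did not pass, with a median of -0.38, and Pde6d, Pde1c and Prkg1, the cGMP-dependent kinase, had -0.45, -0.32 and -0.57.

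**Figure D4:**
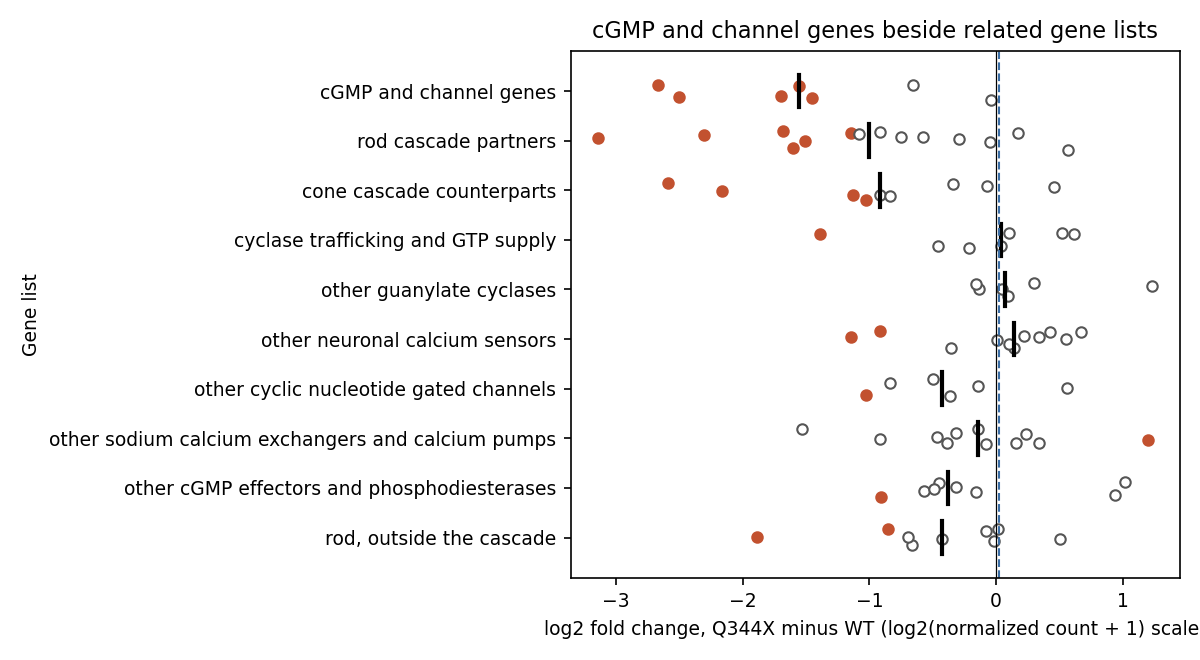
Log2 fold change (x axis, Q344X minus WT) of every tested gene of each list; filled points passed adjusted p under 0.05 in limma, open points did not, black bars are list medians and the dashed line is the median of all tested genes (0.02). The 7 cGMP and channel genes have a median of -1.55, the rod cascade partners -0.999 and the other guanylate cyclases 0.07.

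Markers of rods and cones, the cells that hold these genes, were also compared. Of all tested genes, 9.10% passed as lower and 5.46% as higher. Of 9 rod markers outside the cascade, 2 fell (Fscn2 among them), 0 rose and 7 did not pass, with log2 fold changes from -1.88 to 0.51 and a median of -0.43. In 3 of the 9 the log2 fold change was above that of Cnga1 (-0.04). The list had summed normalized counts of 272446 and 324934 in WT and 222174 and 253225 in Q344X. None of the 9 was at 0. Relative to the mean log2 level of these 9 genes in the same library, Guca1b differed between genotypes by -2.21, Guca1a by -2.05, Gucy2e by -1.24, Gucy2f by -1.10, Slc24a1 by -0.99, Cngb1 by -0.20 and Cnga1 by 0.41. The 6 lower relative levels did not overlap between genotypes, as in 13.2% of all tested genes. The relative level of Cnga1 was higher in both Q344X libraries (0.34 and 0.44) than in both WT libraries (-0.01 and -0.03), as were those of 54.0% of all tested genes.

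Of 8 cone markers, 5 fell, 0 rose and 3 did not pass, with a median of -1.04. Their sums were 27271 and 24328 normalized counts in WT and 11053 and 10970 in Q344X, and none of them was at 0. Arr3, Gnat2, Pde6c, Pde6h, Cnga3 and Cngb3 are also in the cone cascade list above, so these counts repeat calls given there. The part of cones in the fall of Gucy2e and Guca1a, which cones use too, was not tested. Of the other marker lists, 2 of 6 bipolar (median 0.12), 1 of 7 ganglion cell (0.74) and 2 of 6 tested pigment epithelium genes (0.61) rose, and 1 of 6 amacrine (-0.21) and 1 of 6 Müller glia genes (-0.12) fell. None of 5 horizontal (0.10), 6 microglia (0.28) or 4 vessel genes (0.74) passed in limma or edgeR, and 0, 0 and 3 of them had an unadjusted p under 0.05 in limma.

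The genes most like each member over the 4 libraries were found by the distance between centred log2 profiles, among 12269 of the 13327 genes with a mean of at least 50, after the 7 genes themselves, genes without a name, numbered gene models, clone names and pseudogenes were left out. With 4 libraries many genes lie close to any profile, so these are descriptions. Guca1a and Guca1b were closest to each other among the 7 (distance 0.17), and both had Skida1 among their 3 nearest, at 0.05 and 0.18. Nearest to Guca1b was the antisense gene Uckl1os (0.08), whose level is uncertain: the library kit marks strand, but how the counting used it is not given. Gpx3 (0.18) was also among the 3 nearest to Guca1a, and Adamtsl5 (0.17) among those nearest to Guca1b. Nearest to Gucy2e were Jade2 (0.10), Hdhd3 (0.12) and Ak4 (0.12).

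Gucy2f was nearest to Slc24a4, an exchanger of the same family as Slc24a1, at a distance of 0.06. Slc24a4 was at 1497 and 1277 normalized counts in WT and at 733.6 and 311.0 in Q344X, with a low Q344X replicate 2 as in Gucy2f. Cdk5rap2 (0.11) and Col4a3 (0.15) came next. Slc24a1 itself was nearest to Pde7b (0.06), Atp7b (0.06) and Dpf3 (0.08). Cnga1 was nearest to Lurap1l (0.02), Prelid1 (0.03) and Chmp5 (0.03), and Cngb1 to Drosha (0.04), Fam213b (0.04) and Sptbn4 (0.05).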

How the data were processed

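Polyadenylated retinal RNA was sequenced with a directional kit, per the labels' protocols, and 4 libraries are analysed, 2 WT and 2 Q344X. The authors deposited a signal per Ensembl gene, the gene count divided by 1 size factor per library. Per the submitters' processing notes the tools were STAR, featureCounts, FastQC, DESeq2 1.16.1 and Trim Galore 0.4.4, and the build mm10. Their roles, the annotation and the strand setting were not given in the sources used here. All values above 0 were whole multiples of 1 read in each library (100% within 0.1), with size factors of 0.962 to 1.04; where 1 read is worth close to 1 (size factors 0.997 and 1.01), low values cannot tell such multiples from plain whole numbers.

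Of 52636 identifiers, 52489 matched GENCODE M21 (GRCm38). Genes with a mean of at least 10 were tested with limma 3.58.1 in R 4.3.3 on log2(value + 1), with the prior variance following the mean, 3.90 prior and 2 residual degrees of freedom, two-sided p-values and Benjamini-Hochberg adjustment over 16833 genes. Fold changes on this scale understate changes of low genes. The alternatives were pseudocounts of 0.5 and 5, other filters (none, or a mean of 50), 75th percentile scaling, quantile normalization, robust moderation, a loess correction for exon length and GC content (values for 16800 genes) and leaving out each library. edgeR 4.0.16 on recovered reads with TMM scaling was added after seeing the data. The limma and edgeR scripts were tested on simulated data. Ratios were tested by exact permutation (SciPy 1.17.1).

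The members and lists were chosen with earlier results of these data known. In each list up to 4 genes are named: first called genes by size of change, then genes by mean level. For each member the 3 genes nearest by centred log2 profile are named. Some genes the rule picks are not reported here, and Pde6b, Cnga3, Mrps10, Gm5297 and Fscn2 were chosen after their values were seen. The design text counts 2 animals per genotype, the extraction protocol 3 Q344X and 2 WT mice, and neither ties a library to an animal, so the p-values reflect only variation among these 4 libraries, part of which may be technical. Replicates are numbered in accession order.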

Additional observations from a re-analysis of the deposited data

How the results depend on the processing

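The falls of Gucy2e, Guca1a and Guca1b kept their direction and passed the threshold in limma under each alternative run and in edgeR. With no filter on low values, 3 of the 7 genes fell, with Gucy2f (-1.55) and Slc24a1 (-1.45) not past the threshold, and over all genes 153 rose and 383 fell, with 30816 genes tested. Gucy2f was also not past it with a minimum mean of 50 (-1.55) or in edgeR (-1.47). Cnga1 turned sign under quantile normalization (0.24) and the length and GC correction (0.10), and without 1 library ran from -0.21 to 0.13; it passed in none of these. Cngb1 ran from -0.80 to -0.51 without 1 library and passed only without Q344X replicate 2 (-0.75, adjusted p = 0.0415). With the length and GC correction, 1969 genes rose. Without 1 library the counts over all genes were 555 to 2388 higher and 904 to 3045 lower, the fewest without WT replicate 1 and the most without Q344X replicate 1, and 575 rose without WT replicate 2. The shift of Guca1a over Guca1b was 0.059 under quantile normalization and 0.34 with the length and GC correction, that of Cnga1 over Cngb1 was 0.84 under quantile normalization, and that of Gucy2e over Gucy2f ran from -0.77 to 0.49 without 1 library. The cause of these shifts was not tested. No paired analysis was possible because the labels give no replicate numbers that pair the libraries. A fit without 1 library assumes that the lone library of its genotype varies like the intact pair.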
